A study of Mus musculus with 16 samples.

Results

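The T cell receptor variable (V) genes were examined in bulk RNA-seq counts of 16 MC38 tumors. A gene was included when its GENCODE symbol starts with Trav, Trbv, Trgv or Trdv, its biotype is TR_V_gene and it held any count. These conditions were met by 113 of 136 annotated V genes, out of 30951 genes with any count. The members comprised 88 Trav genes (alpha chain, chromosome 14), 21 Trbv genes (beta chain, chromosome 6), 3 Trdv genes (delta chain, chromosome 14) and 1 Trgv gene (gamma chain, chromosome 13). The remaining 23 annotated genes held no count, 13 members held a single count over all tumors, and 54 members held at least 10 counts.

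MC38 is a mouse colon adenocarcinoma cell line, and its cells were grown under the skin of the right flank of female C57BL/6 mice aged 6 to 8 weeks. All mice carried the same transplanted line and an intact immune system. Mice with tumors of 150 to 250 mm3 received 200 µg of control IgG or of aPD-1, an antibody that blocks the PD-1 receptor of T cells, on days 16 and 20, and tumors were harvested on day 21. The groups were IgG control (n = 8, replicates 1 to 8), aPD-1 non-responder (n = 6, replicates 9 to 14) and aPD-1 responder (n = 2, replicates 15 and 16), 1 mouse each. Antibody was assigned by randomization, but the study separated responders from non-responders by CD8 T cell staining of the same tumors. A difference in the amount of V gene RNA between these groups is therefore close to what the designation used. The relative use of segments was not part of the designation, but alpha shares are not free of amount. The most counted alpha gene, Trav4-3, stayed level between the groups while the alpha constant gene Trac rose. Its share of the alpha counts therefore moves with the amount of other alpha RNA. In bulk RNA, fewer T cells and less receptor RNA per cell cannot be told apart.

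Each T cell builds its receptor by joining 1 V segment to a joining (J) segment, with a diversity (D) segment in the beta and delta chains, and the product is spliced to a constant gene. Most T cells of tumors and lymphoid tissue carry an alpha and a beta chain, and a smaller population carries gamma and delta chains. A polyclonal population uses many V segments at once, and expansion of 1 clone raises the share of the segment that the clone carries. V gene counts report segment use and not clones, since the joined sequence that identifies a clone was not part of the table. All 70 J genes and all 4 D genes were listed at 0 counts in every tumor, so no V to J pairing could be read.

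The sequences below are the last 60 coding bases of V genes the results turn on, from GENCODE vM21 transcripts on GRCm38. Capitals mark the codon of the cysteine at which the antigen-contacting loop CDR3 begins, and the bases after it are the germline part of that loop. The first 3 segments were the most used beta segments of the responders, Trbv3 (chr6:41048290-41048828, plus strand), Trbv31 (chr6:41557691-41558452, minus strand) and Trbv16 (chr6:41151740-41152230, plus strand).
Trbv3: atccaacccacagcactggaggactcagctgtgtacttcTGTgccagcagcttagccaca
Trbv31: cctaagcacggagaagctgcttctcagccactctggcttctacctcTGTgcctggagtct
Trbv16: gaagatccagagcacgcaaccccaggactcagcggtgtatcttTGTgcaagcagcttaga

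Trbv31 was the only one of the 21 beta members on the minus strand, and it lies 9.34 kb beyond the end of the constant gene Trbc2. The most alike beta segments were Trbv13-2 (chr6:41121396-41121832) and Trbv13-3 (chr6:41130147-41130585), with 90.6% identity over their transcripts, followed by Trbv12-1 (chr6:41113550-41114067) and Trbv12-2 (chr6:41118851-41119364) with 87.4%. They are shown because counts of near copies could be exchanged by the authors' counting. Every stretch of 100 bases in the 21 beta transcripts was nonetheless found in no other V gene's transcript, so reads of that length would tell even these pairs apart.
Trbv13-2: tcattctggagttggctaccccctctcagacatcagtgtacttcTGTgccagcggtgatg
Trbv13-3: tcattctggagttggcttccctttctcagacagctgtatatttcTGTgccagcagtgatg
Trbv12-1: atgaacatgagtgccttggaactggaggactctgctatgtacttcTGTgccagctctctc
Trbv12-2: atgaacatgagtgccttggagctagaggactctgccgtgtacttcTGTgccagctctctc

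The alpha locus of this mouse strain is duplicated, and many Trav segments have copies whose names carry the letters d or n. The 88 Trav members belong to 46 segments when copies are joined. There were 12 pairs of members with identical transcripts, such as Trav14d-1 (chr14:52855614-52856166) and Trav14n-1 (chr14:53166626-53167178), and 28 Trav members held no stretch of 100 bases that other V genes lack. Within each of the 12 pairs the deposited expected counts were equal in every tumor (tolerance 0.011 counts), so neither copy can be assigned a level of its own. These 24 genes held 8.81% of the counts of the members. Trav4-3 (chr14:53598828-53599410) is shown because it held more counts than any other member, and none of its 100-base stretches occurs in another V gene's transcript. The shorter end printed for it is not unique, being the same in Trav4-4-dv10, Trav4d-4 and Trav4n-4.
Trav14d-1: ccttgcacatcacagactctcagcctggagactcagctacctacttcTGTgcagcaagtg
Trav14n-1: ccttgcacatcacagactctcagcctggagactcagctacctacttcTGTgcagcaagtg
Trav4-3: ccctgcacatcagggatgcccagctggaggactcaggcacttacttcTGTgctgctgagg

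V genes are counted thinly in bulk tumor RNA. Total counts per tumor ranged from 26603449 to 39948866 (median 34105800), while the members together held 2352 counts in the 16 tumors, of which 1459 (62.0%) came from the 2 responders. Responder replicates 15 and 16 held 647 and 812 V gene counts. The 6 non-responders held 39 to 102, and the 8 IgG controls 33 to 123. Most single V genes outside the responders therefore rest on 0 to 5 counts, and a difference between 2 such tumors was not detectable at this depth. One IgG control, replicate 3, had 20.4% of its counts in a single ribosomal RNA gene, and its scaling factor was 0.784 where the other tumors lay near 1.

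The summed level of the V genes separated the responders from all other tumors. It was 19.1 and 22.8 CPM in the responders, where CPM is the count of a gene scaled to a fixed library size, with library sizes corrected by edgeR's TMM method. It was 1.93 ± 0.592 CPM (SD, n = 6) in the non-responders, which ran from 1.19 to 2.62, and 1.76 ± 0.773 CPM (SD, n = 8) in the IgG controls, which ran from 0.989 to 3.41. Neither responder overlapped either group, and the non-responders and IgG controls overlapped widely. The ratio of the group means was 3.44 on the log2 scale for responders over non-responders, with no test.

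The summed beta levels lay further apart between the groups than the summed alpha levels. Summed Trbv levels were 12.1 and 14.2 CPM in the responders, against a median of 0.466 CPM (0.366 to 1.26) in the non-responders and 0.456 CPM (0.180 to 1.11) in the IgG controls. Summed Trav levels were 6.65 and 8.12 CPM in the responders, against 1.32 CPM (0.763 to 1.85) and 1.11 CPM (0.719 to 2.13). Trbv counts exceeded Trav counts in both responders and in none of the other 14 tumors.

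**Figure D1:**
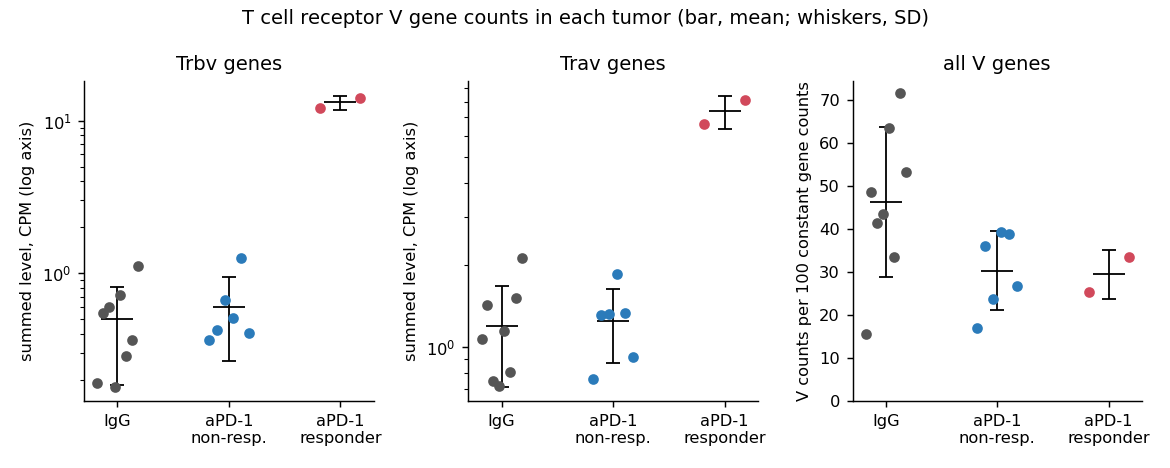
Summed Trbv and Trav levels in CPM (left and middle, log axes) and V gene counts per 100 counts of the receptor constant genes (right, linear axis from 0), 1 point a tumor, with the mean and SD of each group. The 2 responders sit above every other tumor in both level panels and within the range of the other tumors in the panel per constant gene count.

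Set against the constant genes of the receptor, the responders fell within the range of the other tumors. The responders held 25.5 and 33.5 V counts per 100 counts of the alpha, beta, gamma and delta constant genes, compared with 17.0 to 39.4 in the non-responders and 15.6 to 71.6 in the IgG controls. Per 100 counts of Cd3d, Cd3e and Cd3g, the signaling chains that carry the receptor to the surface, the responder mean was 31.0 and the non-responder mean 28.6. On these scales the log2 ratio of responders over non-responders was -0.04 per constant gene count and 0.12 per Cd3 count, in place of 3.44 in CPM. For the beta chain alone, Trbv counts per 100 counts of Trbc1 and Trbc2 were 24.8 and 32.3 in the responders, 7.19 to 28.3 in the non-responders and 3.33 to 41.7 in the IgG controls. For the alpha chain the order turned, with 30.04 and 40.3 Trav counts per 100 Trac counts in the responders, 36.5 to 87.1 in the non-responders and 54.4 to 185 in the IgG controls. The IgG controls lay above both responders without exception, and 5 of the 6 non-responders did. This order depended on Trav4-3. Without Trav4-3 the values were 28.7 and 37.2 in the responders, 21.4 to 48.4 in the non-responders and 26.1 to 138 in the IgG controls. The groups then overlapped.

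Single genes were compared in a fit of all 16 tumors with edgeR's quasi-likelihood test, and calls needed a Benjamini-Hochberg adjusted p under 0.05 over all 18251 genes tested together with an absolute log2 fold change over 1. Of the 113 members, 19 passed the filter on low counts, 17 of them Trbv genes and 2 Trav genes. The filter requires counts in as few as 2 tumors, the size of the responder group. No Trbv gene held 10 counts in 2 tumors outside the responders, so all 17 passed only through the responders. The 16 calls that follow are thus drawn from genes picked for their responder counts. Between responders and non-responders 16 of the 19 were called higher and 0 lower, where 12.5% of all genes tested were called higher and 0.663% lower. With no filter, 31 of the 113 members were called higher, 17 Trbv and 14 Trav, against 7.87% of all genes with any count. The Trav calls include pairs with identical counts, such as Trav14d-1 and Trav14n-1, so 1 signal can give 2 calls. With copies joined, a setting added after seeing the data, 32 of 71 were called higher, against 7.89% of all genes. DESeq2 called 12 of the 19 higher, against 12.3% of all genes. Both responders exceeded all 6 non-responders in 63 of the 113 members, 20 of them Trbv and 41 Trav, a pattern shown by 16.4% of all genes.

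The 16 called genes were all Trbv genes. Trbv3 had 44 and 64 counts in the responders and 0 to 3 in the non-responders (median 0.5), a log2 fold change of 5.40 ± 0.90 (SE, edgeR adjusted p = 0.000342). Trbv31 had 49 and 43 counts against 1 to 8 (median 3.5), a log2 fold change of 3.42 ± 0.62 (edgeR adjusted p = 0.00071). The groups did not overlap for either gene, and Trbv31 held more counts outside the responders than any other called gene (26 in the non-responders and 3 in the IgG controls).

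The largest log2 fold changes belonged to Trbv4, Trbv12-1, Trbv2, Trbv13-3 and Trbv3. Trbv4 had 13 and 29 counts in the responders and a single count in 1 non-responder (log2 fold change 6.17 ± 0.99, edgeR adjusted p = 0.000242). Its ratio of 126 had a 95% counting interval from 21.4 to 5096, and Trbv4 overlaps the long noncoding RNA gene 5830405F06Rik on the same strand, as does Trbv5. Trbv12-1 had 19 and 32 counts against 2 in all 6 non-responders together, a ratio of 76.5 (counting interval 20.1 to 649). The related genes Trbv13-1, Trbv13-2 and Trbv13-3 had 15 to 39 counts per gene in each responder and 0 to 3 per gene in each non-responder, and all 3 were called higher.

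The other 3 tested members were not called. Trbv12-2 had 13 and 22 counts in the responders and 0 to 5 in the non-responders, which did not overlap (log2 fold change 2.48 ± 0.96, edgeR adjusted p = 0.0855). It was called when the fit held only these groups (edgeR adjusted p = 0.0356). Trav12-2 had 8 and 10 counts against 0 to 5 (log2 fold change 1.93 ± 1.02, edgeR adjusted p = 0.214). Trav4-3 had a log2 fold change of -0.26 ± 0.49 (edgeR adjusted p = 0.782) and is described with the alpha locus.

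Against the IgG controls 16 of 19 tested members were again called higher and 0 lower, where 14.3% of all genes were called higher and 0.641% lower. These were the same 16 genes, which had passed the filter only through the responders. With no filter the count was 41 of 113, against 9.73% of all genes, and DESeq2 called 15 of 19, against 14% of all genes. The 41 again include pairs with identical counts. With copies joined and no filter it was 38 of 71, against 9.74% of all genes. Both responders exceeded all 8 IgG controls in 62 members, a pattern of 15.1% of genes. The responders are the same 2 tumors in both comparisons, so these are not independent counts. The order of the genes differed from that against non-responders: Trbv31 led with 6.48 ± 0.68 on the log2 scale (edgeR adjusted p = 2.07e-06), followed by Trbv15 with 5.74 ± 0.84 (edgeR adjusted p = 7.31e-05) and Trbv29 with 5.51 ± 0.92 (edgeR adjusted p = 0.000259). Trbv31 held 3 counts and Trbv15 a single count in all 8 IgG controls together. Trbv12-2 was not called here either (log2 fold change 2.36 ± 0.91, edgeR adjusted p = 0.072), with 0 to 11 counts in the IgG controls.

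**Figure D2:**
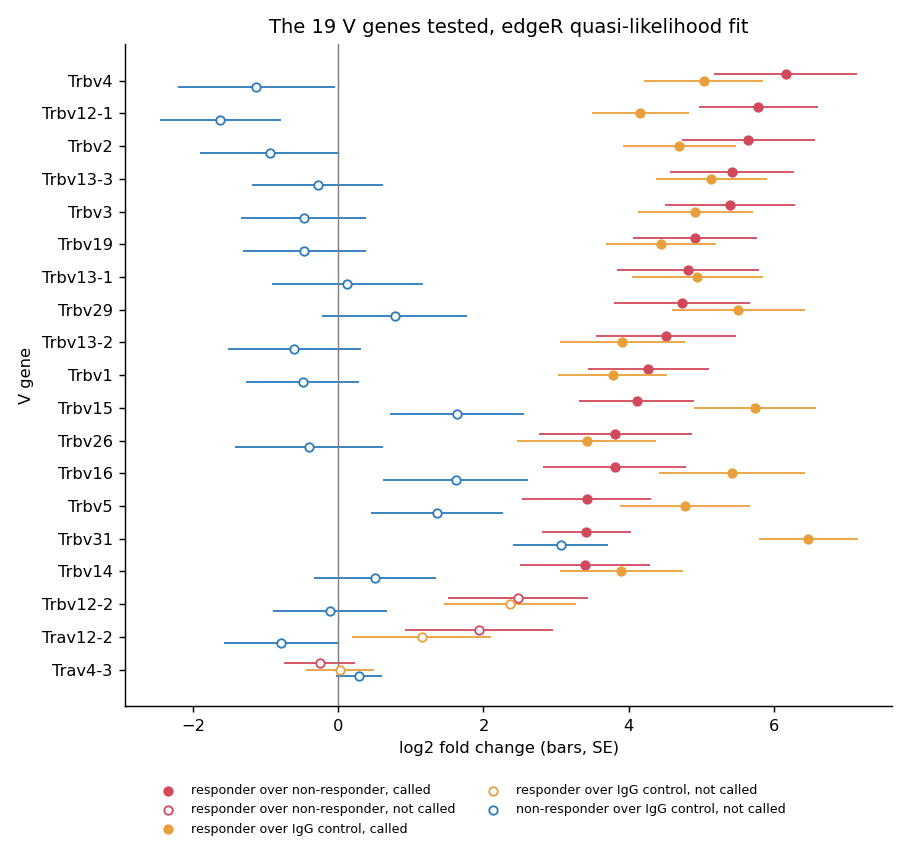
Log2 fold changes of the 19 tested V genes with their standard errors, in 3 comparisons from 1 fit. Points are filled where the gene was called. The Trbv genes other than Trbv12-2 lie between 3.40 and 6.48 for the responders against either group, Trav4-3 lies near 0 in all 3 comparisons, and Trbv31 stands apart among the non-responders over IgG controls at 3.06, which did not pass the test.

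No V gene was called between non-responders and IgG controls. With edgeR, 0 of 19 tested members were called, as were 0.0% of all genes, and 1 member and 3.80% of all genes had an unadjusted p below 0.05. With no filter 0 of 113 were called and 7 had an unadjusted p below 0.05, as had 4.49% of all genes, and DESeq2 called 0 of 19 members and 0.0219% of all genes higher. In no member did all 6 non-responders exceed all 8 IgG controls, a pattern of 0.0194% of genes. All 8 aPD-1 tumors were also compared with the IgG controls, as randomized. Only Trav4-3 passed the filter of that fit, since a gene then needed counts in 8 tumors, and it was not called (log2 fold change 0.23, edgeR adjusted p = 0.827). With no filter 0 of 113 members were called, the lowest adjusted p being 0.252, and 39 had an unadjusted p below 0.05, as had 12.9% of all genes. DESeq2 called 0.374% of all genes higher and no member, and gave Trav4-3 no adjusted p.

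The one member with an unadjusted p below 0.05 between non-responders and IgG controls was Trbv31. It had 2, 5, 2, 8, 8 and 1 counts in non-responder replicates 9 to 14, and a single count in each of 3 IgG controls with 0 in the other 5. Every non-responder held the segment, and the groups overlapped only at 1 count. The log2 fold change was 3.06 ± 0.66 (edgeR adjusted p = 0.725), so the difference did not pass the correction. As a share of pooled Trbv counts, Trbv31 made up 20.0% in the non-responders (26 of 130 counts, 95% Wilson interval 14.03 to 27.7%) and 2.21% in the IgG controls (3 of 136, 0.753 to 6.28%). In the responders it made up 11.9% and 8.53%. All intervals of shares and ratios cover counting error only, as reads were not counted by molecular identifiers. In single non-responders the share ran from 8.33 to 40%, on 12 to 49 Trbv counts each. In single IgG controls it ran from 0 to 20.0%, the highest being 1 of the 5 Trbv counts of replicate 1, and 4 of the 6 non-responders lay below that value.

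The beta repertoire of the responders was broad, and its composition overlapped between both tumors. Replicate 15 showed counts for 20 and replicate 16 for all 21 Trbv members, where non-responders showed 5 to 13 and IgG controls 3 to 13. The number detected rises with depth. At 5 Trbv counts per tumor the expected number was 4.39 and 4.41 in the responders. It was 3.19 to 4.42 in the non-responders and 3 to 4.39 in the IgG controls, so the groups overlapped. The 95% intervals of the share in replicate 15 and in replicate 16 overlapped for all 21 segments. Such overlap does not show that shares were equal, and no direct test of them was made. No segment held a large part: the highest was Trbv31 with 11.9% of 411 counts in replicate 15 (9.14 to 15.4%) and Trbv3 with 12.7% of 504 counts in replicate 16 (10.1 to 15.9%). Each was among the 2 most used segments of the other tumor. Widest apart was Trbv13-3, with 3.65% in replicate 15 (2.22 to 5.93%) and 7.74% in replicate 16 (5.71 to 10.4%).

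Divided by annotated transcript length, a rough scale for comparing segments, Trbv3 led with 10.4% of the Trbv signal of both responders together. Trbv31 followed with 9.66%. These neighbors did not differ beyond counting error, with shares of counts of 11.8% (9.87 to 14.1%) and 10.1% (8.27 to 12.2%). Trbv16 (7.24%), Trbv29 (7.18%), Trbv13-3 (6.94%), Trbv13-1 (6.56%) and Trbv13-2 (6.55%) came next, each close to the one before. The order differed between the responders: per length, Trbv31 led in replicate 15 with 11.6% against 9.52% for Trbv3, while in replicate 16 Trbv3 led with 11.04%, followed by Trbv13-3 with 9.01% and Trbv31 with 8.12%. Trbv16 held 9.39% in replicate 15 and 5.524% in replicate 16. Trbv30, Trbv23 and Trbv20 were lowest with 0.652%, 0.503% and 0.391%, on 5, 4 and 3 counts. Trbv19 and Trbv2, whose transcripts of 566 and 560 bases are the longest, ranked lower per length than by count. Whether annotated length suits reads of rearranged transcripts was not tested.

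**Figure D3:**
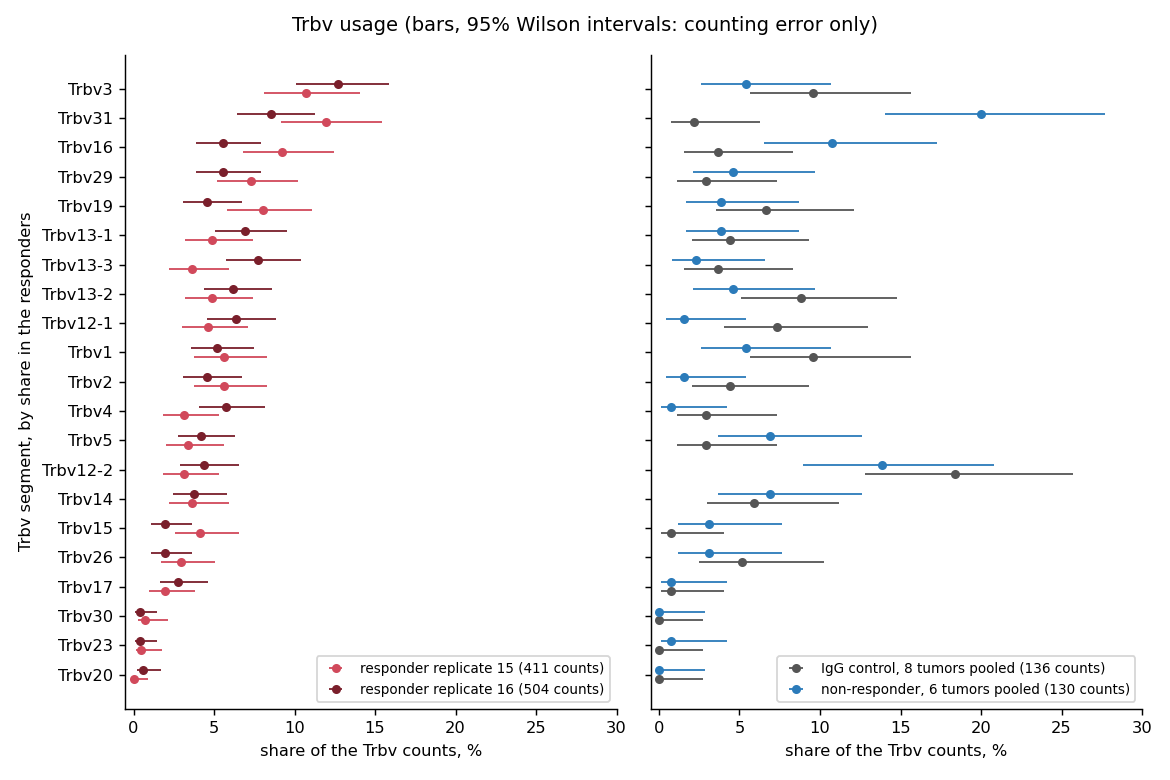
Share of each Trbv segment among all Trbv counts, with 95% Wilson intervals that cover counting error only, in the 2 responders (left) and in the pooled IgG control and non-responder tumors (right). The responders' intervals overlap for each of the 21 segments with no share above 12.7%, while Trbv31 reaches 20.0% of the non-responder counts and Trbv12-2 reaches 18.4% of the IgG control counts.

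Outside the responders the pooled composition differed for a few segments. Trbv12-2 made up 18.4% of Trbv counts in the IgG controls (12.8 to 25.7%) and 13.8% in the non-responders (8.94 to 20.8%), but 3.83% in the responders (2.76 to 5.27%). It had the highest count, alone or tied, in 4 of 8 IgG controls and 2 of 6 non-responders. Trbv16 held 11 of the 49 Trbv counts of non-responder replicate 13 and 3 counts in the other 5 non-responders together. These shares pool tumors with 5 to 49 counts each, so 1 tumor can set them.

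Trbv evenness did not separate the groups by the inverse Simpson index or at equal depth. The inverse Simpson index, the number of equally used segments that would give the same chance of drawing the same segment in a pair of counts, was 15.2 and 15.8 in the responders. It ran from 4.33 to 16.9 in the non-responders (mean 9.21 ± 4.52, SD, n = 6) and from 3.33 to 15.6 in the IgG controls (mean 10.3 ± 4.79, SD, n = 8). Both responders fell inside the range of the non-responders and replicate 15 inside that of the IgG controls, and the indices of the other tumors rest on 5 to 49 counts. The difference of the means of responders and non-responders was 6.31 segments, against a pooled SD of 4.13. The Shannon number of all counts, which rises with the number of counts, did separate the responders. It was 16.7 and 17.2 in the responders, 4.02 to 10.4 in the non-responders and 2.59 to 10.5 in the IgG controls. When every tumor was reduced to 5 counts, the lowest number in any tumor, the expected Shannon number was 4.20 and 4.23 in the responders and averaged 3.63 in the non-responders, whose highest tumor had 4.25, while the IgG controls reached 4.21. The share of the dominant segment was 12.3% on average in the responders and 28.3% in the non-responders, a difference of -15.9 percentage points, but the highest of 21 shares is larger when few counts are drawn.

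**Figure D4:**
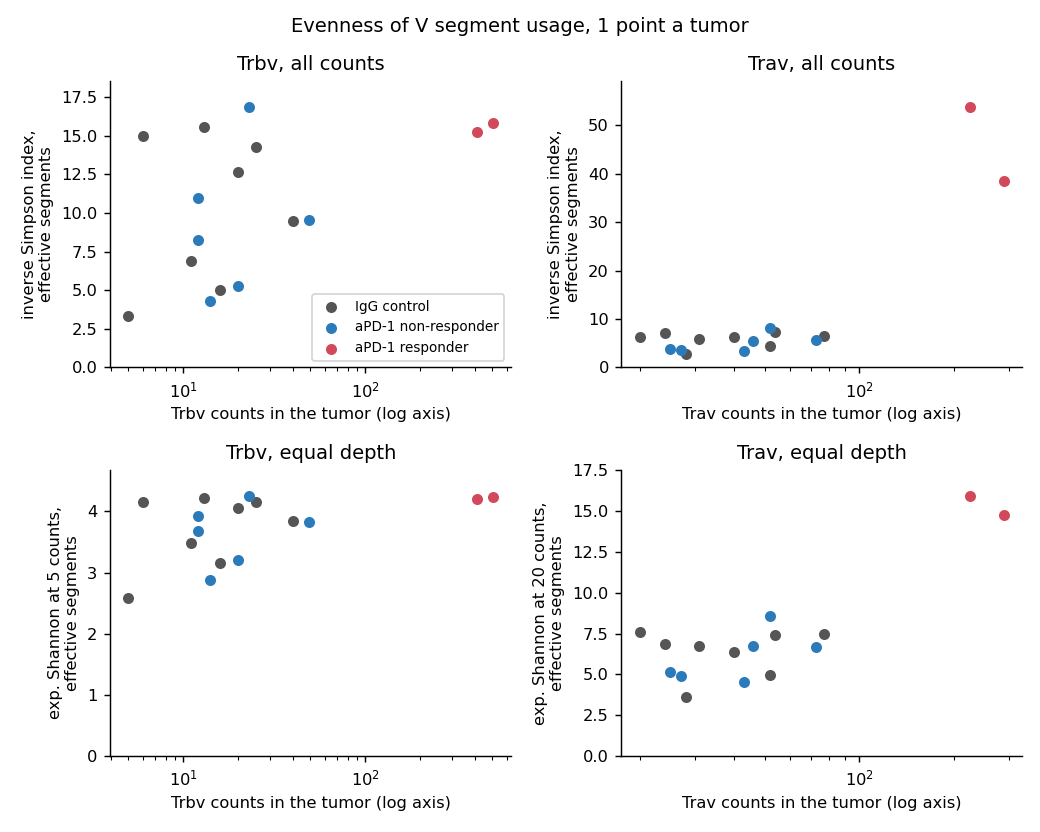
Effective number of segments against the counts of the locus (log axis), 1 point a tumor, for Trbv (left) and Trav (right). The upper panels use all counts and the lower panels reduce each tumor to 5 Trbv or 20 Trav counts. The responders lie within the other tumors for Trbv, and above all of them for Trav, at 15.9 and 14.8 segments against at most 8.56 in the lower panel.

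Among the alpha genes, a single segment was counted in every tumor, at levels that overlapped between all groups. Trav4-3 was the only member with counts in all 16 tumors. It had 10 and 22 counts in the responders, 13 to 29 in the non-responders (median 18) and 6 to 28 in the IgG controls (median 15). The levels were 0.457 ± 0.228 CPM (SD, n = 2), 0.548 ± 0.140 CPM (SD, n = 6) and 0.450 ± 0.192 CPM (SD, n = 8), and all 3 groups overlapped. Pooled over tumors, the ratio of responders to non-responders was 0.835 (counting interval 0.546 to 1.25) and that of responders to IgG controls 1.02 (0.669 to 1.52). Over the same tumors the constant gene Trac went from 31 to 126 counts in non-responders to 749 and 718 in responders, a log2 fold change of 3.44 ± 0.43 (edgeR adjusted p = 1.88e-05). Trav4-3 counts per 100 Trac counts were accordingly 1.34 and 3.06 in the responders, 15.1 to 45.2 in the non-responders and 21.1 to 48.6 in the IgG controls.

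Trav4-3 had the highest Trav count in both responders too, but with a far smaller share than elsewhere. Outside the responders its share of Trav counts was 32.7 to 53.5% in the non-responders and 25.0 to 57.1% in the IgG controls, and it had the highest Trav count in 13 of these 14 tumors. The exception was IgG control replicate 4, where Trav4-4-dv10 had 7 counts and Trav4-3 had 6. In the responders the share was 4.44% (10 of 225 counts, 95% Wilson interval 2.43 to 7.99%) and 7.61% (22 of 289, 5.08 to 11.3%).

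The 4 Trav members with the most counts outside the responders lie close together. Trav4-3 (236 counts in the 14 other tumors), Trav12-2 (46), Trav13-2 (30) and Trav4-4-dv10 (54) all fall in chr14:53598828-53684177, a stretch of 85.4 kb of the alpha locus. This window was chosen after its counts were seen, so no test was made. Its 8 members held 388 of the Trav counts of the 14 other tumors, where the 80 members elsewhere held 204. Members in the window had 20.8% of their summed counts in the responders, and those outside it 66.9%. The share was low in Trav4-3 (11.9%), Trav12-2 (28.1%), Trav13-2 (21.1%) and Trav4-4-dv10 (18.2%), whose counts outside the responders set the window. It was higher in Trav3-3 (58.3%), Trav12-3 (63.6%), Trav14-2 (52.9%) and Trav9-4 (100%, on 2 counts), which also lie in the window. The contrast therefore belongs to the genes that set the window and was not shown for the stretch as a whole. The window supplied 58.3 to 86.5% of Trav counts in the IgG controls, 59.6 to 81.4% in the non-responders, and 16.9% and 22.1% in the responders. The end of Trav4-3 lies 621 kb before the start of Trac. Whether these counts came from rearranged receptor transcripts was not tested.

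**Figure D5:**
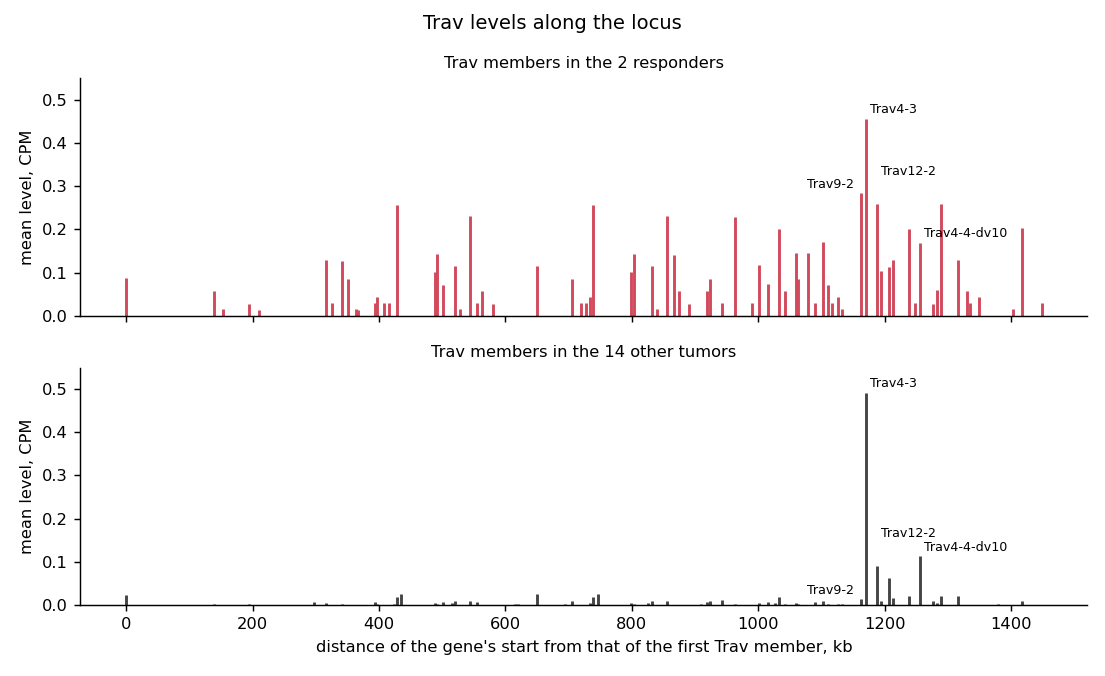
Mean level in CPM of each Trav member against its distance from the first member of the locus, in the 2 responders (top) and the 14 other tumors (bottom) on the same scale. Counts of the responders are spread along the whole locus, whereas those of the other tumors gather in Trav4-3 and its neighbors Trav12-2 and Trav4-4-dv10.

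More Trav members were detected in each responder than in any other tumor. Replicates 15 and 16 showed counts for 66 and 60 Trav members, 50 of them in both, against 9 to 20 in the non-responders and 8 to 24 in the IgG controls. With no filter on low counts, Trav9-2 (4 and 16 counts in the responders, 1 count in the non-responders) had a log2 fold change of 5.00 ± 1.11 (edgeR adjusted p = 0.00474). Trav14d-1 and Trav14n-1, which share their reads, had 6 and 12 counts each against 2 in all non-responders, a log2 fold change of 4.26 ± 1.16 (edgeR adjusted p = 0.0198). Trav7-6 had 9 counts in each responder against 0 to 2, and was not called over the non-responders (log2 fold change 3.21 ± 1.15, edgeR adjusted p = 0.0808) but was over the IgG controls (3.51 ± 1.09, edgeR adjusted p = 0.034). Some members held few or no responder counts, such as Trav12-2 with 28.1% of its counts there, and 12 of the 113 members were counted only outside the responders. Trav13-2 (2 and 6 counts against 0 to 6) and Trav4-4-dv10 (1 and 11 against 1 to 6) overlapped between the groups.

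Trav evenness separated the responders from all other tumors, also at equal depth, while non-responders and IgG controls overlapped. The inverse Simpson index was 53.7 and 38.5 segments in the responders, 3.32 to 8.24 in the non-responders and 2.80 to 7.34 in the IgG controls. The difference of responders and non-responders was 41.1 segments, against a pooled SD of 4.71, with no test. Joining the d and n copies of a segment lowered the responders to 27.2 and 23.1 and left the non-responders at 3.25 to 7.58. At 20 counts per tumor, the lowest Trav count, the expected Shannon number was 15.9 and 14.8 in the responders and at most 8.56 elsewhere. Without Trav4-3 the indices of the other tumors were higher, with 10 to 23.8 in the non-responders and 4.40 to 33.0 in the IgG controls against 54.3 and 41.8 in the responders. At 12 counts per tumor without Trav4-3, the numbers were 10.5 and 10.1 in the responders, 6.87 to 8.95 in the non-responders and 4.69 to 9.52 in the IgG controls. Both responders stayed above every other tumor, by a smaller margin, and the other groups overlapped. The other members of the window around Trav4-3 were kept in, and d and n copies were counted apart. Whether the margin holds with copies joined and Trav4-3 left out was not tested. Whether Trav evenness is free of the amount of T cell RNA was not tested.

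The copies of the duplicated part of the locus held a larger share of the pooled counts in the responders, with no test. Members with the letter d held 23.0% and those with n 19.6% of responder Trav counts. They held 10.5% and 12.03% in the non-responders and 11.3% and 7.36% in the IgG controls. The remaining 41 members, which include Trav4-3, held 57.4%, 77.4% and 81.3%. With Trav4-3 left out, the n copies held 21.0% in the responders, 21.2% in the non-responders and 11.7% in the IgG controls, and the d copies 24.5%, 18.5% and 18.05%, so the responders no longer exceeded the non-responders in the n copies.

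Segments used by semi-invariant T cells held few counts. Trav11 and its copy Trav11d encode the alpha chain of invariant natural killer T cells. Trav11 held no count, and Trav11d held 3 counts in responder replicate 15, 1 count in an IgG control and 0 in the other 14 tumors. Trav1, used by mucosal-associated invariant T cells, held 18 counts in 6 tumors, with 5 and 1 counts in the responders, 0 to 3 in the non-responders and 0 to 6 in the IgG controls, which overlapped. Zbtb16, a transcription factor of these innate-like cells, was called higher in the responders over the non-responders (log2 fold change 3.50, edgeR adjusted p = 0.00231), with 204 and 56 counts, and reached 80 counts in an IgG control.

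The gamma and delta genes were rare. Trgv2, a gamma chain segment, had 5 counts in each responder, 0 to 6 in the non-responders and 0 to 3 in the IgG controls. Trdv4, a delta segment that overlaps the antisense gene Gm30275, had 3 and 9 counts in the responders, 0 to 2 in the non-responders and 0 to 3 in the IgG controls. Trdv1 had 3 and 2 counts in the responders, a total of 1 in the non-responders and 3 in the IgG controls, and Trdv2-2 had 4 counts in all tumors. With no filter none of these genes was called in any comparison, the lowest adjusted p of edgeR being 0.0746 for Trdv2-2, with 3 counts in replicate 16, against the IgG controls. A further 6 gamma V genes carry Tcrg-V symbols and so fall outside the naming rule, with 8 counts in total. The delta constant gene Trdc, which every delta chain carries, had 63 and 86 counts in the responders and 4 to 12 in the non-responders and was called higher (log2 fold change 3.05, edgeR adjusted p = 0.000425).

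Other receptor and coreceptor genes moved with the V genes. Of the 4 CD3 chains, Cd3d, Cd3e, Cd3g and Cd247, all were called higher in the responders over both groups. Log2 fold changes over the non-responders were 3.54 ± 0.48 for Cd3e (edgeR adjusted p = 4.56e-05), 4.35 ± 0.36 for Cd4, the coreceptor of helper T cells (edgeR adjusted p = 3.09e-07), and 3.13 ± 0.46 for Cd8a, that of cytotoxic T cells (edgeR adjusted p = 0.000109). Genes that build the receptor in the thymus were mostly absent. Rag2 was at 0 in all tumors, and Rag1 and Ptcra had 6 and 8 counts in all. Dntt, which adds bases at the joints, had 28 and 34 counts in the responders and 0 to 4 elsewhere and was called higher (log2 fold change 3.56 ± 0.69, edgeR adjusted p = 0.00127).

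Markers of other lymphoid cells moved with the V genes, and their part in the results was not tested. The 8 B cell markers were all called higher in the responders over both groups, and their summed level was 1244 and 310.3 CPM in replicates 15 and 16 against 1.70 to 6.71 CPM in the non-responders and 1.55 to 7.97 CPM in the IgG controls. The 6 markers of stromal cells of lymph nodes and of high endothelial venules, the vessels through which lymphocytes enter lymph nodes, were likewise all called, with 422 and 130.4 CPM against 0.921 to 4.58 and 0.190 to 2.19 CPM. The 8 T cell markers were all called, with 218 and 194 CPM against 11 to 29.5 and 7.16 to 21.0 CPM. No marker of these 3 lists was at 0 throughout a group. Of the 5 NK cell markers, 3 were called over the non-responders, with 24.4 and 44.6 CPM against 10.6 to 20.9 CPM, and all 5 over the IgG controls, which had 8.63 to 19.4 CPM. Of 5 macrophage markers 1 was called over the non-responders, and of 4 fibroblast markers 0 were. Replicate 15 was the higher responder for the B cell, lymph node and T cell lists, and the lower one for summed V, Trbv and Trav levels.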

How the data were processed

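The authors aligned stranded poly(A) RNA-seq reads of fresh frozen tumor sections with STAR 2.6 and deposited RSEM 1.3.0 expected counts per gene (GRCm38, Ensembl gene identifiers). RSEM divides reads shared by several genes, which affects copied Trav segments. Here the expected counts were rounded to whole numbers, spike-in rows were left out, and symbols, biotypes and sequences were taken from GENCODE vM21 by gene identifier. Group labels were those given to each tumor by the submitters.

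Genes were tested with the quasi-likelihood test of edgeR 4.0.16 in R 4.3.3 (TMM scaling, filterByExpr, robust fit, no covariate, all 16 tumors as 3 groups), with Benjamini-Hochberg adjustment over all 18251 genes tested. All aPD-1 tumors were compared with IgG controls in a fit of 2 groups. Calls required an adjusted p under 0.05 with an absolute log2 fold change over 1. Alternatives were DESeq2 1.42.0, median-of-ratios factors, other filters, summed Trav copies, fits restricted to 2 groups, and omission of each tumor in turn. Segment shares carry 95% Wilson intervals, ratios exact binomial intervals, and evenness is the inverse Simpson index without replacement. Total counts of 26603449 to 39948866 per tumor left 33 to 812 V gene counts, which sets the precision.

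Named genes were the 8 Trbv, 8 Trav and 3 Trdv members of highest mean level, the only Trgv member, the highest member of each tumor, Trbv29, Trbv31, Trav11, Trav11d, Trav1, the 5 largest called changes per comparison and fixed lists of receptor, coreceptor and marker genes. Trbv20, Trbv23 and Trbv30 were named after their values were seen. The members and lists were chosen with earlier results of these data known. Scripts were tested on simulated data.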

Additional observations from a re-analysis of the deposited data

Results flagged for a closer look

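Single tumors were checked for values far from the rest of their group in 37 combinations of a measure or member and a group, and 6 stood out. The cutoffs assume independent, normally distributed values, whereas many of these levels rest on few counts. Some combinations also share the same counts. No rate expected by chance can therefore be given. Among the IgG controls, replicate 8 had a summed V gene level of 3.41 CPM, with the next tumor at 2.05 CPM. The same tumor had 0.249 CPM of Trav13-2, with the next at 0.0573 CPM. IgG control replicate 2 had 0.383 CPM of Trav12-2, with the next at 0.143 CPM. In IgG control replicate 1 the leading Trav segment, Trav4-3, held 57.1% of Trav counts, with the next tumor at 40%. Among the non-responders, replicate 13 had a summed Trbv level of 1.26 CPM, with the next at 0.662 CPM, and 0.283 CPM of Trbv16, with the next at 0.0576 CPM. V genes outside the naming rule, which carry Tcrg-V or provisional symbols, held 9 counts in the responders and at most 2 counts in any IgG control.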

How the results depend on the processing

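No paired analysis was possible because the groups share no replicate numbers. Of the 19 V genes tested, 17 had passed the filter only through the responders. Among the 19, 16 were called for responders against non-responders and 16 against IgG controls. With at least 10 counts required in at least 8 tumors, 1 member was tested and 0 were called in both comparisons. With no filter the counts were 31 and 41, and with copies of a segment also summed, an alternative chosen after seeing the data, 32 and 38 of 71 joined members (7.89% and 9.74% of all genes). Copies summed with the filter gave 18 and 19 of 22. Leaving out 1 tumor gave 13 to 16 calls against non-responders, 13 of them without replicate 16, and 15 to 17 against IgG controls. Without replicate 15, 24 members were tested. With 1 responder left, that tumor was taken to vary like the other groups. Omission gave 0 to 0 for non-responders and for all aPD-1 tumors against IgG controls. DESeq2 called 12 and 15. Trbv15, Trbv16, Trbv5 and Trbv26 lost their call against non-responders with DESeq2 (DESeq2 adjusted p of 0.0715, 0.0742 and 0.0746 for the first 3). Trbv26 also lost its call against IgG controls with DESeq2. Omission of tumors was followed gene by gene only for the genes named by rule. Among these, Trbv15, Trbv16 and Trbv5 lost their call without replicate 15 (edgeR log2 fold changes of 3.57, 3.48 and 3.58). Trbv5 also lost it without replicate 16 (3.09). Trbv12-2 gained a call against IgG controls without replicate 3 (edgeR adjusted p = 0.0414) or replicate 8 (0.0258). Trbv31 was called in no setting for non-responders against IgG controls, with adjusted p from 0.0988, without replicate 1, to 1. The summed V level ratio of 3.44 (log2, responders over non-responders) became -0.041 per constant gene count, 0.12 per Cd3 count and 3.89 without Trav4-3 (added after seeing the data), and 3.31 to 3.56 with 1 tumor left out. The cause of these shifts was not tested. The difference of 6.31 effective Trbv segments (inverse Simpson) became 5.33 to 7.84 with 1 tumor left out. That of 41.1 effective Trav segments became 23.7 with members of at least 10 counts, 20.5 with copies summed, 30.5 without Trav4-3 (added after seeing the data) and 33.5 to 48.7 with 1 tumor left out. Equal depth used another index, the Shannon number of 5 Trbv or 20 Trav counts, which cannot exceed 5 or 20. Its differences of 0.589 and 9.27 are not on the scale of 6.31 and 41.1. The Shannon number of all counts averaged 16.9 in responders and 7.10 in non-responders for Trbv, and 47.4 and 7.91 for Trav. The difference in dominant Trbv share of -15.9 percentage points became -31.4 for the 3 highest segments and -19.0 to -13.6 with 1 tumor left out. Depth limits single V genes outside the responders, most of which held 0 to 5 counts per tumor.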
